A study of Mus musculus with 12 samples.

Results

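The interferon-stimulated genes described here are 34 named genes that cells transcribe more strongly after an interferon signal, measured in RNA of the aorta, its descending stretch, from male mice of strain C57BL/6. A gene counted as measured where the array carried a gene probe under exactly that name, which held for 33 of the 34, with 41 probes between them. The whole array named 28316 genes. Ifi27 had no probe of its name. Of the 33 measured genes, 31 exceeded background clearly in 6 or more of the 12 mice and were tested among 16930 genes. Oas3, above background on 0 arrays, and Mx1, above it on 1, were not tested. The mice were aged 6 months (6 mice) or 20 months (6 mice), had no treatment in the labels, were fed standard chow and contributed 1 array each. The RNA came from whole vessels flushed through the heart and stripped of surrounding fat, so fewer cells of a type and less RNA per cell cannot be told apart. The genes were listed by name.

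Interferons are secreted proteins. Type I interferons bind a receptor of Ifnar1 and Ifnar2 and, through the kinases Jak1 and Tyk2, bring Stat2 and Irf9 into a complex that binds the interferon-stimulated response element (ISRE). Interferon gamma acts on a shorter element, the gamma-activated site (GAS). In the vessel wall, endothelial cells, smooth muscle cells and macrophages can all carry out this response.

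Levels are log2 signals relative to the 75th percentile of the array, so a difference of 1 is a doubling. Levels of different genes were not compared, except in sums of markers. Such sums add signals of different probes, are led by the brightest and do not measure amounts of cells. The arrays lay on 3 slides with 2 mice of each age on each. Slide 1 held 6 months replicates 2 and 3 and 20 months replicates 1 and 2. Slide 2 held 6 months replicates 4 and 5 and 20 months replicates 4 and 6. Slide 3, scanned on a later day, held 6 months replicates 1 and 6 and 20 months replicates 3 and 5. Every array at 20 months lay in column 3 of its slide and none at 6 months did, so column position and age cannot be told apart. Between 47.5% and 55.8% of gene probes stood well above background per array. Markers of smooth muscle, endothelium and fibroblasts were above the filter in all 27 listed cases. Before any result, 20 months replicate 1 stands apart: its heart muscle markers summed to 234 on the linear scale of signal over the 75th percentile, against 8.25 to 103 in the mice at 6 months.

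The promoters show what these genes share in sequence. A promoter of 300 bases, 250 before the annotated start and 50 after it, was found in RefSeq (GRCm38.p6) for 23 of the 34 genes. Dhx58, Zbp1, Ifi204, Oas1b, Oas2, Usp18, Mx1, Mx2, Rtp4, Ifi27 and Parp14 had no entry. The ISRE core was searched as GAAANNGAAA on both strands (TTTCNNTTTC when read on the other). It occurred in 14 of the 23 genes (60.9%), against 3.99% of 27025 genes with a promoter. A GAS core, TTCNNNGAA, which reads the same on both strands, occurred in 6 of 23 (26.1%), against 9.55%. In 1 promoter, that of Bst2, a match to one overlapped a match to the other. The stretches below are examples from genes described in the results, shown for how the matches lie; Isg15 is shown for its run of matches. Each reads 5′ to 3′ along the gene's strand, and capitals mark the match.
Isg15: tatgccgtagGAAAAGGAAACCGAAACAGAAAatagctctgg
Ifit1: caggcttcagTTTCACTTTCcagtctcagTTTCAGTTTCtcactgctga
Ifit3: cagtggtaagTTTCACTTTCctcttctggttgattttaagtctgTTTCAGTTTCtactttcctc
Gbp3: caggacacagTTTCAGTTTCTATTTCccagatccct
Rsad2: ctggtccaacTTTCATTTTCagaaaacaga
Cxcl10: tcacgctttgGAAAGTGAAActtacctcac
Irf1: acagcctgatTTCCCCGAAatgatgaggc

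These lie at chr4:156200865-156200906 (minus strand, Isg15), chr19:34640775-34640823 (plus, Ifit1), chr19:34583363-34583426 (plus, Ifit3), chr3:142559989-142560024 (plus, Gbp3), chr12:26456553-26456582 (minus, Rsad2), chr5:92349083-92349112 (minus, Cxcl10) and chr11:53769914-53769942 (plus, Irf1) in GRCm38.p6, all upstream of the annotated start. Isg15 carried 3 overlapping ISRE matches in a row, Gbp3 carried 2 overlapping ones, and Ifit1 and Ifit3 each had 2 separate ones. The Irf1 match is a GAS core. The windows of Irf7, Irf9, Oasl1, Oasl2, Ifi44 and Xaf1 held neither set of letters, which says nothing about sequence outside them.

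The study compared the ages. At an adjusted p under 0.05 (limma, Benjamini-Hochberg over all genes tested), 54 genes passed (0.319%), 45 higher at 20 months (0.266%) and 9 lower (0.0532%). None of the 31 interferon-stimulated genes was among them. At an unadjusted p under 0.05, 2 of 31 passed, against 7.99% of all genes. The median change of the 31 genes was 0.06 (log2, 20 months minus 6 months), against -0.02 for all genes. A positive change was seen in 18 of 31, against 43.9% of all genes, but in 11 of 31, against 45.5%, when 20 months replicate 1 was left out. The median of the 31 was then -0.05. In 0 of 31 did all mice of one age lie on one side of the other age, which held for 0.62% of all genes upward and 0.195% downward. A change of at least 1.5-fold in size was seen in 1 of 31, Mx2, against 1.86%.

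**Figure D1:**
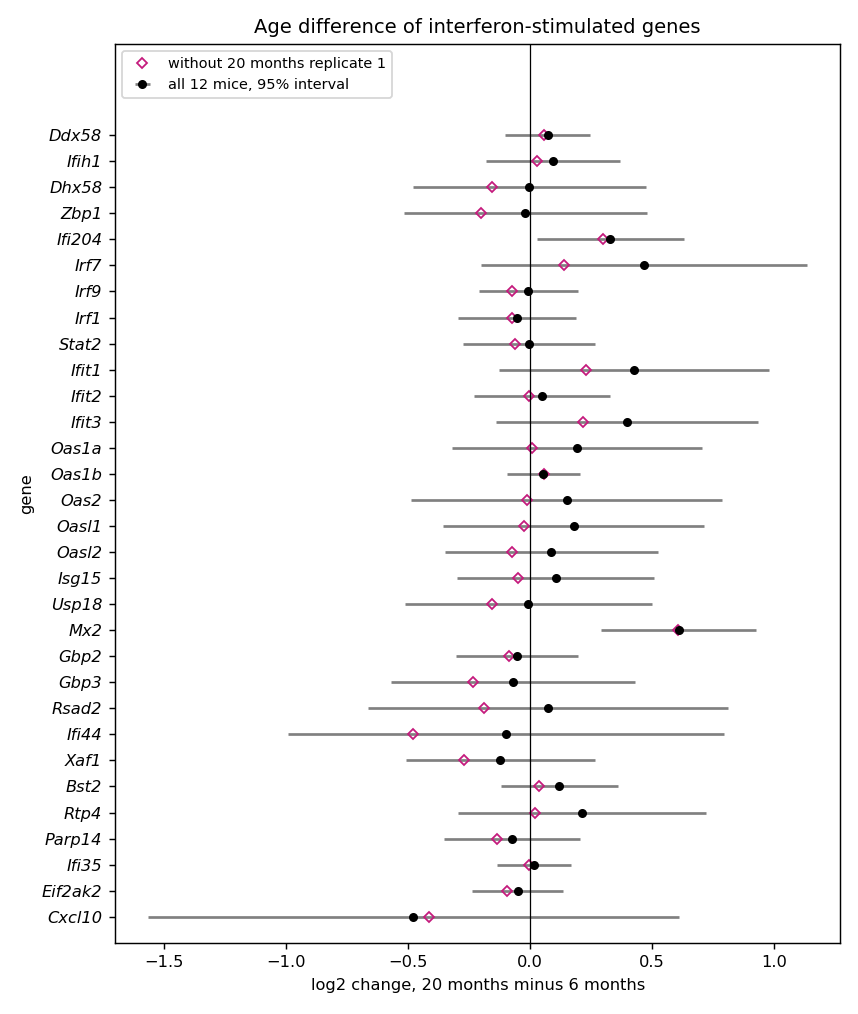
Age difference of the 31 tested interferon-stimulated genes, as the log2 change at 20 months minus 6 months (horizontal axis) for each gene (vertical axis, ordered by role). Black points with bars are the estimate from 12 mice and its 95% interval, and open diamonds the value without 20 months replicate 1. The intervals of Mx2 and Ifi204 lie above 0, and for Ifi44 the diamond at -0.48 lies far left of the point at -0.10.

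The sensors bind foreign or misplaced nucleic acid and start the signal. Ddx58 (RIG-I) and Ifih1 (MDA5) detect double-stranded RNA, Dhx58 (LGP2) modulates them, Zbp1 senses Z-form nucleic acid, and Ifi204 belongs to a family of DNA sensors. For Ifi204 the lowest, median and highest levels were 0.88, 1.55 and 1.76 at 6 months and 1.47, 1.79 and 1.91 at 20 months. The ages overlapped, with the lowest value in 6 months replicate 4. The change of Ifi204 was 0.33 ± 0.14 (SE, 6 mice per age; adjusted p = 0.569), and it was 0.34, 0.34 and 0.31 within slides 1, 2 and 3. Without 6 months replicate 4 it was 0.22, and 0.18 when 6 months replicate 1 and 20 months replicate 1 were left out as well. For Zbp1, the most variable sensor, levels ran from -1.86 to -0.82 at 6 months and from -1.67 to -0.37 at 20 months, and the mean change was -0.02 ± 0.23. The changes of Ddx58, Ifih1 and Dhx58 were 0.07, 0.09 and -0.003, none past the threshold.

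Of the transcription factors, Irf7 amplifies type I interferon production once induced, Irf9 and Stat2 are parts of the ISRE-binding complex, and Irf1 responds chiefly to interferon gamma. The Irf7 probe is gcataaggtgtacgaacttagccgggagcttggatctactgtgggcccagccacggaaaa, printed because this gene gave the largest departure of 1 mouse from its age group among the factors. Its 60 bases span 351 bases of chromosome 7 (148450664 to 148451014, minus strand, mm9), so the probe crosses a splice junction. Irf7 levels at 6 months were tight, with a lowest of -1.73, a median of -1.67 and a highest of -1.47. At 20 months they were -1.77, -1.49 and 0.48. A single mouse, 20 months replicate 1, was high, and 20 months replicate 2 came next at -1.07. The mean change was 0.47 ± 0.31 (SE, 6 mice per age; adjusted p = 0.743), and 0.14 ± 0.12 without that mouse. Stat2 averaged 0.89 at both ages, with 1 low value of 0.38 in 6 months replicate 4, where the other 5 young mice ranged from 0.86 to 1.1. Irf9 and Irf1 had mean changes of -0.01 and -0.05.

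The IFIT proteins bind viral RNA that lacks a host cap. Ifit1 (chromosome 19, 34723796 to 34723855, plus strand, mm9) had a lowest, median and highest level of -2.75, -2.07 and -1.68 at 6 months and of -2.20, -1.81 and -0.69 at 20 months. The 2 highest values of Ifit1 came from 20 months replicates 1 and 2, both on slide 1. The Ifit1 change of 0.43 ± 0.26 did not pass (adjusted p = 0.712) and was 0.23 ± 0.21 without 20 months replicate 1. Ifit3 levels were 0.17, 0.74 and 1.20 at 6 months and 0.60, 0.83 and 1.96 at 20 months, with the same pair of mice highest. Its change was 0.40 ± 0.25 (adjusted p = 0.720), and 0.22 ± 0.21 without 20 months replicate 1. Ifit2 had a change of 0.05 ± 0.13.

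Active enzymes of the OAS family make the second messenger that activates RNase L. Oas1a, Oas2, Oasl1 and Oasl2 had changes of 0.19, 0.15, 0.18 and 0.09, and all 4 were highest of the 12 mice in 20 months replicate 1. Without that mouse the changes were 0.0077, -0.011, -0.024 and -0.072. Oas2 was the most variable of them, with its lowest level, -1.81, in 6 months replicate 4 and its highest, 0.06, in 20 months replicate 1. Oas1b, by contrast, ran only from 4.70 to 4.96 over all 12 mice, a within-age SD of 0.089. It is annotated as a transcribed pseudogene in the C57BL/6J reference, as are Mx1 and Mx2. Both Oas1a probes gave a high value in 20 months replicate 1, 1.11 and 1.15 above the mean of the other 5 old mice.

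Isg15, a ubiquitin-like protein that is conjugated to other proteins, had levels of 1.79 to 2.33 at 6 months and 1.75 to 2.95 at 20 months, with a mean change of 0.10 ± 0.19. Without 20 months replicate 1 the change was -0.05 ± 0.14. Both Isg15 probes were high in that mouse, by 0.92 and 1.15. Usp18, the protease that removes Isg15 and also dampens receptor signalling, ran from -1.0 to -0.23 at 6 months. At 20 months it was lowest in replicate 6 (-1.69) and highest in replicate 1 (0.03), with a mean change of -0.01 ± 0.23.

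Mx2 belongs to a family of interferon-induced dynamin-like GTPases but is annotated as a transcribed pseudogene in the C57BL/6J reference. It had the smallest p of the 31. Its probe lies on chromosome 16 (97782327 to 97782386, plus strand, mm9). The lowest, median and highest levels were -2.92, -2.44 and -2.17 at 6 months and -2.20, -1.88 and -1.63 at 20 months. The ages overlapped by a single pair: 20 months replicate 6 at -2.20 lay below 6 months replicate 2 at -2.17. The change was 0.61 ± 0.15 (SE, 6 mice per age), or 1.52-fold with a 95% interval of 1.22 to 1.90, and did not pass (adjusted p = 0.154). It was 0.43, 0.87 and 0.53 within slides 1, 2 and 3, and 0.61 without 20 months replicate 1. With normexp background correction it was 0.24 (adjusted p = 0.257), and over all alternatives the adjusted p ran from 0.0309 to 0.99995. With the slide as a fixed block Mx2 passed (adjusted p = 0.0309), as the only 1 of the 31 against 0.402% of all genes. The guanylate-binding GTPases act on membranes that enclose pathogens. Gbp2 and Gbp3 had changes of -0.05 ± 0.12 and -0.07 ± 0.23.

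Among the other effectors, Ifi44 (chromosome 3, 151394035 to 151394094, minus strand, mm9) was the most variable. Its levels were -2.83 to -2.08 at 6 months, and at 20 months -3.88, -2.75 and -0.69 as the lowest, median and highest. The lowest value, in 20 months replicate 6, was not well above background and is only a bound. The mean change was -0.10 ± 0.41. Rsad2 (viperin, an antiviral radical SAM enzyme) ran from -1.37 to -0.03 at 6 months and from -1.24 to 0.76 at 20 months. Bst2 (tetherin) holds budding virus at the membrane. Its lowest, median and highest levels were 2.92, 3.13 and 3.34 at 6 months and 3.04, 3.17 and 3.67 at 20 months. The Bst2 change was 0.12 ± 0.11 (adjusted p = 0.803), and 0.04 ± 0.09 without 20 months replicate 1. Rtp4 levels were 1.03, 1.42 and 1.56 at 6 months and 0.76, 1.53 and 2.55 at 20 months. The Rtp4 change was 0.21 ± 0.24 (adjusted p = 0.836), and 0.02 without 20 months replicate 1. Xaf1, a pro-apoptotic factor, Parp14, an ADP-ribosyltransferase, Ifi35 and the kinase Eif2ak2 (PKR) had changes between -0.12 and 0.02.

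Cxcl10, the chemokine that attracts activated T cells through Cxcr3, had the largest spread of the 31, with a within-age SD of 0.988. Its levels were -2.76, -1.89 and -0.17 at 6 months and -3.55, -2.42 and -0.44 at 20 months, the lowest of these, in 20 months replicate 6, not well above background. The 3 highest values came from slide 1, namely 6 months replicate 3 (-0.17), 20 months replicate 2 (-0.44) and 6 months replicate 2 (-1.17). The fourth mouse of slide 1, 20 months replicate 1, was low at -2.53. The mean change was -0.48 ± 0.50 (SE, 6 mice per age; adjusted p = 0.827).

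**Figure D2:**
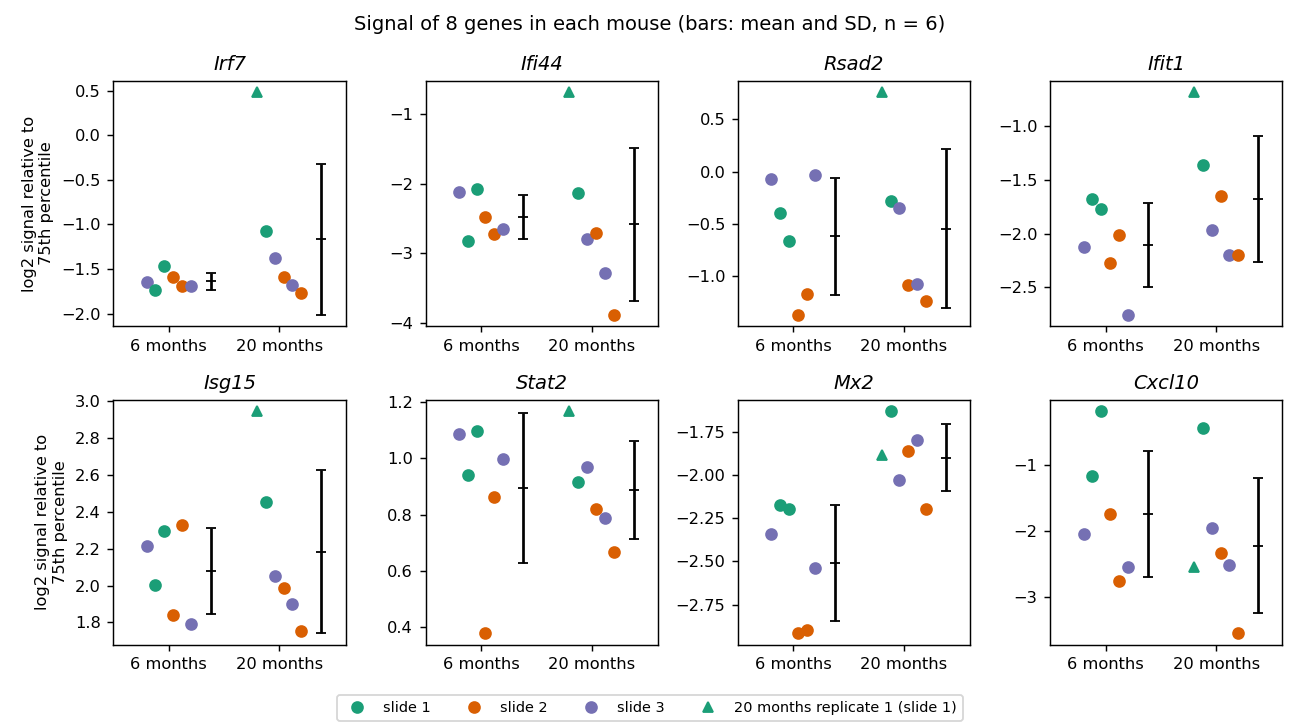
Level of 8 interferon-stimulated genes in each mouse (vertical axis, log2 signal relative to the 75th percentile of the array) at 6 and 20 months, coloured by slide. Black bars give the mean and SD of the 6 mice, and the triangle is 20 months replicate 1. That mouse is highest for Irf7, Ifi44, Rsad2, Ifit1, Isg15 and Stat2 but not for Mx2 or Cxcl10.

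High values gathered in 1 mouse. 20 months replicate 1 held the highest value of all 12 mice for 21 of 31 genes, against 9.47% of all genes tested, and the highest of the old mice for 24 of 31 (25.8%). It lay at least 0.5 (log2) above the mean of the other 5 old mice for 16 of 31 (10.1%) and at least 1 above it for 9 of 31 (2%). Irf7 was 3.95-fold and Rsad2 2.96-fold above that mean. Ifi44 was 4.12-fold above the mean of the 4 other old mice in which it was well above background, and 4.84-fold above that of all 5. Oasl1, Ifit1, Rtp4, Oas1a, Ifit3 and Zbp1 lay at 2.13- to 2.32-fold, and Gbp3, Oas2, Oasl2, Dhx58 and Isg15 at 1.89- to 1.99-fold. The pattern was not uniform. Oas1b (0.995-fold), Mx2 (1.01-fold), Ddx58 (1.06-fold), Ifi35 (1.08-fold) and Irf1 (1.09-fold) were near the other old mice, and Cxcl10 was lower at 0.768-fold (0.603-fold of the 4 other old mice in which it was well above background).

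Low values gathered in another old mouse. 20 months replicate 6 had the lowest value of all 12 mice for 15 of 31 genes, against 9.27% of all genes, and the lowest of the old mice for 28 of 31 (20.1%). It lay at least 0.5 below the mean of the other 5 for 14 of 31 (5.05%), among them Oas2 (by -1.21), Usp18 (-1.18) and Dhx58 (-1.10). Cxcl10 (-1.59) and Ifi44 (-1.56) were not well above background in this mouse, so these 2 differences have no exact size. Among the young mice, 6 months replicate 4 was lowest of the 6 for 16 of 31 (15.6%) and lay at least 0.5 below the mean of the other 5 for 6 of 31 (3.07%), with Oas2 at -1.09 and Rsad2 at -0.90 from it. The deviation from the 12-mouse mean of each gene, averaged over the 31 genes, was 0.64 in 20 months replicate 1, 0.25 in 20 months replicate 2 and 0.22 in 6 months replicate 3, the 3 highest and all on slide 1, while the remaining mouse of slide 1, 6 months replicate 2, was at -0.02. It was -0.45 in 20 months replicate 6 and -0.31 in 6 months replicate 4, the 2 lowest and both on slide 2.

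**Figure D3:**
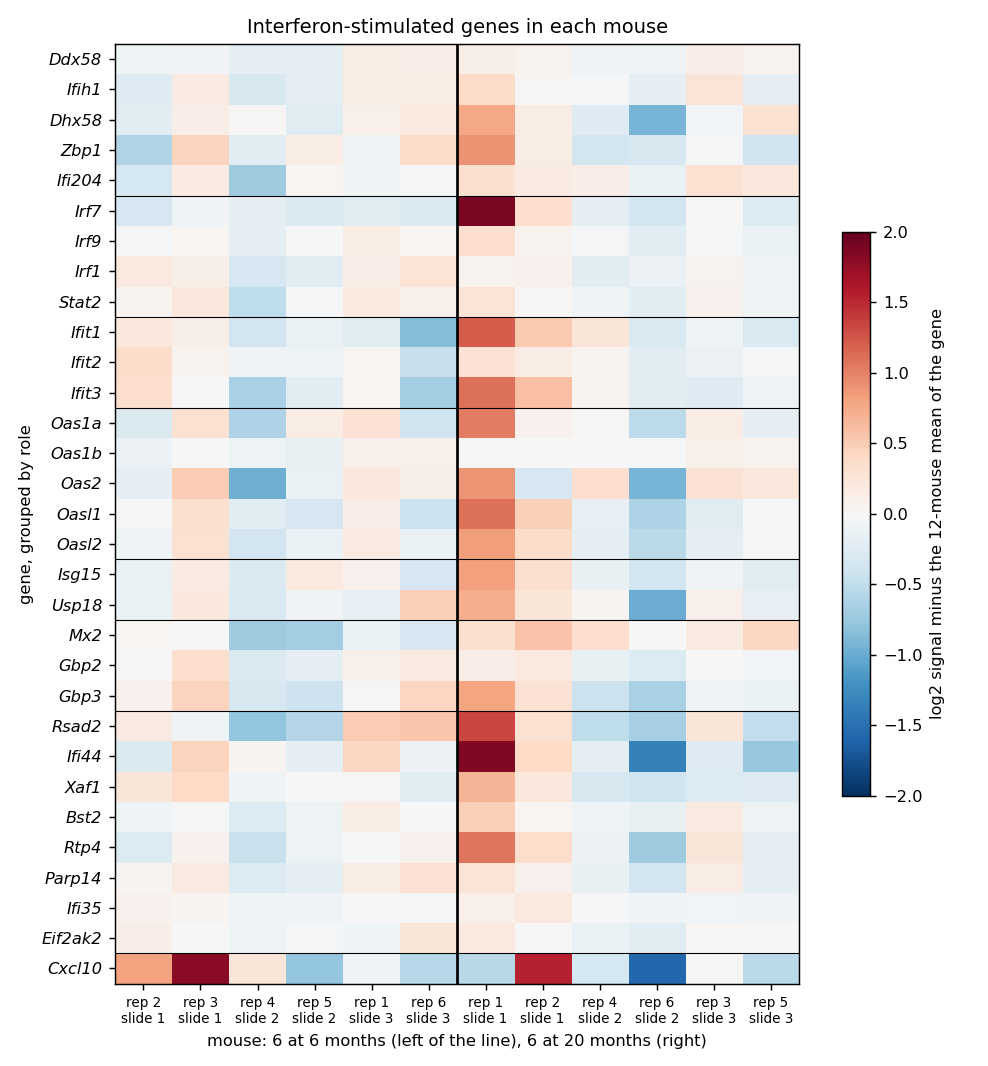
Log2 signal minus the 12-mouse mean of the gene (colour, red higher and blue lower) for 31 interferon-stimulated genes (rows, grouped by role) in 12 mice (columns, young left and old right of the line, ordered by slide). The column of 20 months replicate 1 is red for most rows, with Irf7 and Ifi44 strongest, and that of 20 months replicate 6 is blue.

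**Figure D4:**
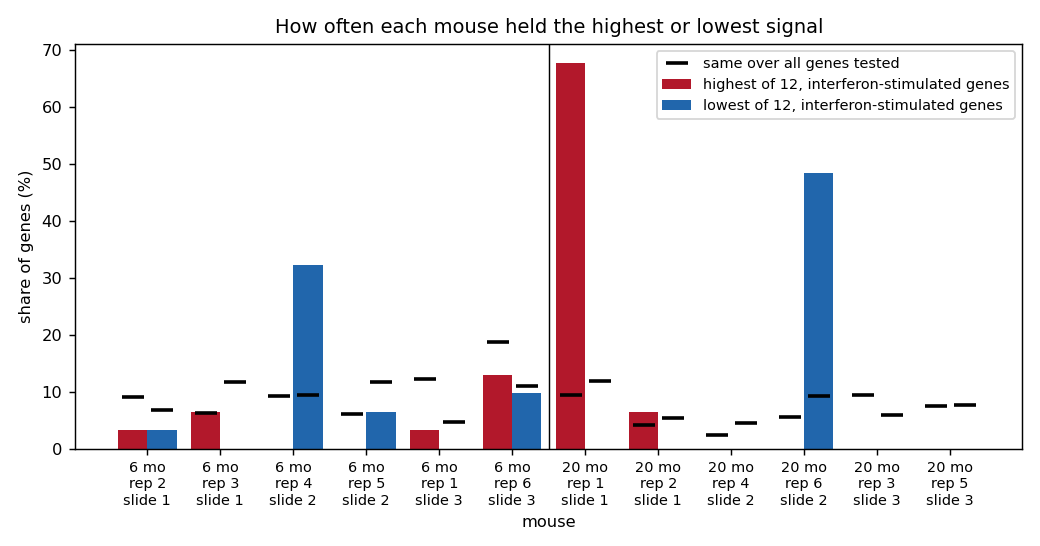
Share of the 31 interferon-stimulated genes (vertical axis, %) for which each mouse (horizontal axis) held the highest (red bars) or lowest (blue bars) of the 12 values, with black ticks for the same share over all 16930 genes tested. 20 months replicate 1 stands out for the highest values (21 of 31) and 20 months replicate 6 for the lowest (15 of 31).

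The spread between mice of an age was accordingly wide. The median within-age SD was 0.35 for the 31 genes and 0.20 for all genes, and without 20 months replicate 1 it was 0.26 and 0.19. At 20 months alone the medians were 0.44 and 0.18 with that mouse, and 0.24 and 0.15 without it. At 6 months they were 0.25 and 0.21. By this measure Cxcl10, Ifi44, Rsad2, Irf7 and Oas2 were the most variable, while Oas1b (0.089), Ifi35 (0.094) and Ddx58 (0.12) were the least. By Dixon's criterion 1 mouse lay far from the other 5 of its age for 1 of 31 genes at 6 months (4.63% of all genes) and 1 of 31 at 20 months (8%).

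Markers of other cell types moved with some of these mice. Of 17 listed monocyte and macrophage markers 15 were tested, and all 15 were higher in 20 months replicate 1 than the mean of the other 5 old mice, the reference for all such differences here. Their summed signal was 217 in that mouse, the highest of 12, and Itgam alone made up 66.7% of it. Sums ran from 132 to 181 in the young mice and from 163 to 217 in the old. Ranges of the old mice here and below include 20 months replicate 1. All 15 had a positive age change and 0 passed the threshold. In 20 months replicate 6 the sum was 191, the second highest of 12. Yet 12 of the 15 were lower there than in the other old mice, among them Cx3cr1 (by -0.61), Fcgr1 (-0.58) and Ccr2 (-0.54). The heart muscle sum of 234 in 20 months replicate 1 was the highest of the old range of 13.8 to 234, and all 11 markers were higher there, with Myh6 by 5.55. Of 9 listed brown adipocyte markers, 7 were higher in 20 months replicate 1, with Elovl3 by 3.44, Otop1 by 1.33 and Ucp1 by 1.17. Dio2 and Ppargc1a were lower by -0.54 and -0.58. The 9 markers summed to 1916 in that mouse, against 1114 to 2170 in the young mice and 1022 to 1916 in the old. Of 9 neutrophil markers 4 were tested. S100a9, S100a8 and Camp were higher in 20 months replicate 1 by 2.16, 1.86 and 0.11, and Csf3r was lower by -0.08. Ltf and Mmp8 were above background on 0 arrays. The summed signal of the 4 was 147 in that mouse, 95.4% of it Csf3r. It lay within the 129 to 171 of the young mice and the 136 to 166 of the old. Of 9 plasmacytoid dendritic cell markers 6 were tested. They summed to 294 in 20 months replicate 1, against 217 to 286 in the young mice and 212 to 294 in the old, with 84.0% from Siglech, which was higher by 0.21. Cox6a2 of that list, also a muscle gene, was higher by 5.61 and Spib lower by -0.87, while Klk1 was above background on 0 arrays. Of 18 T and NK cell markers 9 were tested. Of these, 8 were higher in 20 months replicate 1, with Gzma by 1.96 and Lck by 0.74, and Cd2 was lower by -0.32. In 20 months replicate 6, 7 were lower, with Gzma by -1.93 and Lck by -0.88. Cd3e and Cd4 were higher there by 0.44 and 0.37. Gzma was well above background on 11 arrays. The sum of the 9 in 20 months replicate 1 was 13.7, 38.5% of it Cd4. It lay within the 10.6 to 27.3 of the young mice and was the highest of the 10.1 to 13.7 of the old. Klrd1, Ncr1 and Gzmb were above background on 0 arrays. B cell markers were higher in 20 months replicate 1 for 4 of 5 tested, and endothelium markers for 6 of 10. Smooth muscle markers were higher there for 1 of 9, fibroblast markers for 1 of 8 and mesothelium markers for 0 of 5. All 5 mesothelium markers had a negative age change, from -1.07 (Lrrn4) to -3.09 (Msln). All 5 had an unadjusted p under 0.05 (limma), against 7.99% of all genes, and 0 passed the adjusted threshold. The second highest heart muscle sum (103) was in 6 months replicate 1, whose mean deviation over the 31 genes was 0.07. The highest T and NK cell sum (27.3) was in 6 months replicate 4, one of the mice with low values. The part of any of these cells in the high or low values was not tested.

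The slide was the other axis along which the genes moved together. With age and slide in the model, 240 genes differed between slides (1.42%) and 0 of the 31 did. At an unadjusted p under 0.05, 16 of 31 passed, against 21.9% of all genes, and 13 of 31, against 21.3%, without 20 months replicate 1, where 0 of 31 and 1.28% of all genes passed after adjustment. The direction was shared. The mean of slide 1 lay above that of slide 2 for 31 of 31 genes, against 52.1% of all genes. At 6 months alone it did so for 30 of 31 (54.9%), Zbp1 being the exception. At 20 months the mouse of slide 1 other than replicate 1 lay above the slide 2 mean for 30 of 31 (50.7%), all but Oas2. Slide 2 was the lowest of the 3 slides for 29 of 31 (42.3%) and slide 1 the highest for 27 of 31 (25.2%). At 6 months slide 1 was highest for 14 of 31 (22.1%) and slide 3 for 17 (48.1%). Each slide holds 4 mice, so a difference between slides and a difference between those mice cannot be told apart.

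Xaf1 and Gbp3 came nearest to the threshold for slide. Xaf1 averaged 0.93, 0.35 and 0.36 on slides 1, 2 and 3 (4 mice each; adjusted p = 0.0563, limma F test), and Gbp3 1.32, 0.47 and 0.97 (adjusted p = 0.0576). Without 20 months replicate 1 both had an adjusted p of 0.0632. For Xaf1 the young mice alone gave 0.86, 0.51 and 0.44, and for Gbp3 1.18, 0.55 and 1.12. Ifit1 averaged -1.38, -2.04 and -2.26 (adjusted p = 0.0764), and Ifit3 1.36, 0.60 and 0.60 (adjusted p = 0.0835). Gbp2 averaged 2.13, 1.74 and 2.02 (adjusted p = 0.0835), and Irf1 2.95, 2.60 and 2.92 (adjusted p = 0.0884). For Ifit1, Ifit3 and Xaf1 slide 1 was highest with slides 2 and 3 closer together, whereas for Gbp2, Gbp3 and Irf1 slide 2 was lowest with slides 1 and 3 closer together. Cxcl10 had the largest gap between slides 1 and 2, 1.51, and 1.58 in the young mice. These calls depend on the settings: with normexp background correction 6 of the 31 passed for slide (7.54% of all genes), and with array weights 14 (16.4%).

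**Figure D5:**
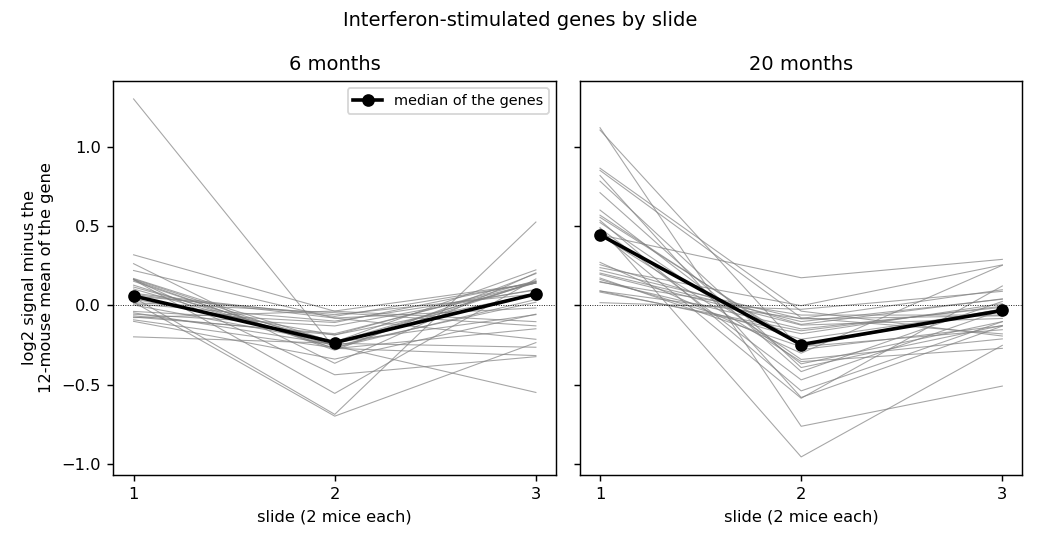
Log2 signal minus the 12-mouse mean of the gene (vertical axis) by slide (horizontal axis, 2 mice per slide and age), with a grey line for each of 31 interferon-stimulated genes and their median in black. At both ages the median is lowest on slide 2, at -0.23 for 6 months and -0.25 for 20 months, and on slide 1 it is 0.06 at 6 months and 0.45 at 20 months.

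Whether the age change differed between slides was tested as an interaction. It passed for 1 gene of all tested (0.00591%) and for 0 of the 31, and at an unadjusted p under 0.05 for 1 of 31, Rsad2, against 2.99%. For Rsad2 the change was 0.77 on slide 1, 0.11 on slide 2 and -0.66 on slide 3 (adjusted p = 0.9998 for the interaction). The value on slide 1 includes 20 months replicate 1.

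The genes upstream were given by lists. Of 11 listed interferon ligands, 9 had a probe and 2 were above the filter: Ifna1 and Ifna5, with changes of -0.11 ± 0.14 and -0.40 ± 0.17 (adjusted p = 0.851 and 0.589). Ifnb1 and Ifng were above background on 1 array each. Of 6 receptor genes 5 were tested and 0 passed in either direction. Ifnar2, Ifngr2 and Ifngr1 had changes of -0.19, 0.08 and -0.11. Of 10 JAK-STAT kinases, factors and inhibitors, 0 passed, with Jak2 at -0.14, Socs3 at 0.19 and Socs1 at -0.27. Of 17 genes listed as upstream receptors, adaptors and kinases, 13 were tested and 0 passed for age. Ticam1 was at 0.13, Irf5 at 0.23 and Ikbke at 0.14. Tlr7, a sensor of single-stranded RNA, passed for slide (adjusted p = 0.0353).

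A further list of 40 interferon-induced genes, 36 of them tested, was set beside the 31. For age 0 of 36 passed (0.319% of all genes), with 22 positive changes (43.9% of all genes) and 14 negative. The 3 smallest p values belonged to Ifitm2 (0.18 ± 0.07), Ifitm3 (0.20 ± 0.09) and Samd9l (0.20 ± 0.09), with adjusted p from 0.520 to 0.590. 20 months replicate 1 was the highest of 12 mice for 16 of 36 (9.47% of all genes), and lay at least 0.5 above the other old mice for 14 (10.1%). Gbp7 and Gbp5 lay 1.01 and 1.0 above them and Gbp4 0.91, followed by Tap1 (0.80) and Igtp (0.79). 20 months replicate 6 was the lowest for 10 of 36 (9.27% of all genes). The mean of slide 1 lay above that of slide 2 for 33 of 36 (52.1% of all genes), and slide 2 was the lowest slide for 31 (42.3%).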

How the data were processed

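Per the file headers, the authors scanned 1-colour (Cy3) arrays with Agilent Feature Extraction 10.7.1.1 on design 028005. The deposited scanner files hold an intensity per spot, background-subtracted and not scaled between arrays. A deposited table of log2 values, whose steps are not given in the sources used here, served as an alternative. Here the intensity was taken to log2, outlier spots were left out, repeat spots were averaged, and values were set relative to the 75th percentile of gene probes on their array. Probes well above background on at least 6 of 12 arrays were kept, and the brightest probe of each gene was used, which gave 16930 genes. Ages were compared with limma 3.58.1 (R 4.3.3, lmFit and eBayes) with age as the only term, slides with an F test in a model of age and slide, and their interaction with an F test. Adjusted p-values are Benjamini-Hochberg over all genes, with a threshold of 0.05. Errors are standard errors of the fit. The number of arrays limits the precision.

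The 31 tested genes were all named. Full values were given for the 8 with the smallest p for age, the 6 for slide and the most variable of each role. From each pathway list up to 3 genes were named. Members, lists and rule were chosen with earlier results of these data known. Probe positions are in mm9 and promoters in GRCm38.p6. The alternatives were normexp (offset 50), quantile and median scaling, the log2 table, other filters and probe rules, trend and robust eBayes, array weights, the slide or replicate number as a block, single slides, and arrays left out. One gene of the pathway lists is not reported here.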

Additional observations from a re-analysis of the deposited data

Results flagged for a closer look

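For 2 of the 31 genes, 1 mouse lay far from the other 5 of its age by Dixon's criterion, which chance meets in about 1 of 20 groups. Irf7 stood at 0.48 in 20 months replicate 1, where the other 5 old mice ranged from -1.77 to -1.07. Such a mouse was found among the old mice for 8% of all genes tested. Stat2 stood at 0.38 in 6 months replicate 4, where the other 5 young mice ranged from 0.86 to 1.1. Among the young mice 4.63% of all genes had one.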

How the results depend on the processing

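No alternative but the slide as a fixed block made any of the 31 genes pass for age (1 gene, Mx2). The number of all genes that passed for age, 54, was 33 with median scaling, 23 without a filter, 123 with array weights, 30 without the 3 arrays high in heart muscle or T and NK cell markers, and 1, 1 and 0 on slides 1, 2 and 3 alone. It ranged from 21 to 58 with 1 array left out. With the replicate block it was 8, and 0 of the 31. Same-numbered mice did not deviate together (correlations from -0.36 to 0.32, and 1 of 6 mice at each age correlating best with its own number), so the numbers were not taken as pairs. For slide, all genes passing (240) became 1277 with normexp, 54 with median scaling, 89 without a filter, 518 with every probe, 2773 with array weights and 45 without the 3 arrays, with a range of 67 to 282 when 1 array was left out. Of the 31 genes, 6 passed for slide with normexp, 2 with the filter on all 12 arrays, 2 with trend and robust settings, 14 with array weights, and 0 to 3 with 1 array left out: 3 without 6 months replicate 2 and 1 without 6 months replicate 1. For the interaction, 2 genes of all passed with normexp and 2 with trend and robust settings, and 1 to 2 with 1 array left out. The causes were not tested.

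Uncalled age changes (log2) that turned sign were these. With median scaling Dhx58 was 0.030, Irf9 0.027, Stat2 0.028, Usp18 0.026 and Zbp1 0.015. With normexp Dhx58 was 0.0065, Ifi44 0.018 and Usp18 0.031. With quantile normalization Dhx58 was 0.014 and Irf9 0.0022, and with the deposited log2 values they were 0.014 and 0.0026. With array weights Isg15 was -0.0045 and Rsad2 -0.082, and with the mean over probes Ddx58 was -0.012. On slide 1 alone Dhx58 was 0.50, Eif2ak2 0.032, Gbp3 0.27, Ifi44 1.05, Irf9 0.19, Parp14 0.057, Stat2 0.023, Usp18 0.45, Xaf1 0.12 and Zbp1 0.60. On slide 2 alone Gbp2 was 0.020, Ifit2 -0.0054, Irf1 0.12, Irf7 -0.039, Isg15 -0.21, Oas1a -0.013, Oasl1 -0.12, Oasl2 -0.11, Rtp4 -0.15 and Stat2 0.12. On slide 3 alone Bst2 was -0.030, Cxcl10 0.065, Ddx58 -0.043, Ifi35 -0.045, Ifih1 -0.11, Isg15 -0.024, Oas1b -0.013, Oasl2 -0.12, Rsad2 -0.66 and Rtp4 -0.012. Without the 3 arrays Ifi35 was -0.016, Ifit2 -0.0015, Isg15 -0.074, Oas1a -0.026, Oas2 -0.17, Oasl2 -0.10, Rsad2 -0.24 and Rtp4 -0.039. With 1 array left out the changes ranged from -0.16 to 0.18 (Dhx58), -0.20 to 0.068 (Zbp1), -0.073 to 0.035 (Irf9), -0.11 to 0.039 (Stat2), -0.040 to 0.13 (Ifit2), -0.032 to 0.35 (Oas2), -0.024 to 0.32 (Oasl1), -0.072 to 0.20 (Oasl2), -0.048 to 0.19 (Isg15), -0.15 to 0.19 (Usp18), -0.12 to 0.0081 (Gbp2), -0.23 to 0.053 (Gbp3), -0.19 to 0.21 (Rsad2), -0.48 to 0.16 (Ifi44) and -0.019 to 0.037 (Ifi35). Probes near background, such as those of Oas3 and Mx1 on nearly all arrays and Ifi44 and Cxcl10 in 20 months replicate 6, have only a bound.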

Other observations

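Ifi27 had no probe of its own name, but the array's probe named Ifi27l1 carries an accession that RefSeq gives to Ifi27. Chosen after its values were seen and not counted among the 31, it averaged 8.07 ± 0.27 at 6 months and 7.81 ± 0.26 at 20 months (SD, 6 mice each), a change of -0.26 ± 0.15 (SE; adjusted p = 0.717 over all probes), and lay 0.60 above the other old mice in 20 months replicate 1. Its relative Ifi27l2a averaged 8.28 ± 0.44 and 7.65 ± 0.16, a change of -0.62 ± 0.18 (adjusted p = 0.290 over all probes). The 2 probes of Ifi27l2b had changes in the other direction, 0.85 ± 0.32 and 0.25 ± 0.19 (adjusted p = 0.543 and 0.781 over all probes), the first above background on 8 arrays.

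Oas3 and Mx1 were not tested. Mx1 was well above background in 20 months replicate 3 alone (-3.70), with signals from -6.02 to -4.78 in the young mice and from -5.69 to -3.49 in the old ones, none of the others well above background.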
